A study of Mus musculus with 18 samples.

Results

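The transcripts described here encode 7 subunits of the GABA-A receptor in the mouse hippocampus: the alpha subunits Gabra2, Gabra3, Gabra4 and Gabra5, the beta subunits Gabrb1 and Gabrb2, and the delta subunit Gabrd. They were chosen by gene symbol, with earlier results of these data known, as 7 of the 18194 genes named on the array (Affymetrix, whole mouse genome). Of its 45101 probe sets, 21 are annotated to one of these genes and to no other gene. A mean signal above 20 over all 18 arrays was reached by 15 of the 21, and these entered the tests, which ran over 22932 probe sets. Gabrb2 was represented by 4 tested probe sets, Gabra2 and Gabrb1 by 3 each, Gabra4 by 2, and Gabra3, Gabra5 and Gabrd by 1 each. The other 6 probe sets had mean signals of 2.25 to 16.0 and are not described further, whereas the dimmest tested one, a Gabra2 probe set, averaged 57.8. Probe sets of 1 gene hybridise with the same transcript and are not independent of each other.

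RNA was taken from the hippocampus of male C57BL/6J mice (labelled C57Bl/6) and measured in 6 groups with 3 arrays each. The 12 m group was reared for 12 months. The IH28D group underwent 28 days of intermittent hypoxia treatment (IHT), the IH5DR2 group 5 days of IHT and then 2 days (64 h) of normoxia, and the IH5D group 5 days of IHT. The Ctrl28 group was kept in normoxia for 28 days as the control of IH28D, and the Ctrl group was untreated. IHT is a model of sleep-disordered breathing, in which inspired oxygen was brought from 21% to 5% in cycles of 3 min for 8 h per day, and mice were 10 weeks old when experiments began. Mice of the 12 m group had no IHT and therefore differ from Ctrl and Ctrl28 in age and not in IHT, and Ctrl28 and IH28D mice were kept longer than Ctrl mice. By their sample numbers the Ctrl28 arrays were recorded apart from all other groups. The labels name no run, and a difference of run cannot be told apart from the Ctrl28 condition. The labels do not say whether each array came from a separate mouse, so that p-values measure spread among the arrays, which may be technical. Ctrl is shared by the comparisons of 12 m, IH28D, IH5DR2, IH5D and Ctrl28 with Ctrl, and a low or high Ctrl value enters all of them.

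GABA-A receptors are ligand-gated chloride channels, each assembled from several subunits around a central pore, and they carry most of the fast inhibition in the brain. Alpha and beta subunits form the GABA binding sites, while a gamma or a delta subunit completes the channel. In the hippocampus, receptors with alpha2 sit at synapses, including those on the initial segment of pyramidal cell axons, receptors with alpha5 lie largely outside synapses of pyramidal cells, and receptors with alpha4 and delta lie outside synapses of dentate granule cells, where they carry tonic inhibition.

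A pair of arrays stood apart from their groups. The 12 m array 3 went against its tissue label: 10 markers of hippocampal pyramidal neurons averaged 7.24 on the log2 scale, against 8.29 to 9.13 on the other 17 arrays, and 12 markers of dentate granule cells averaged 5.92, against 7.15 to 7.57. On the same array 11 neocortex markers averaged 8.89, against 7.12 to 7.64 on the other arrays, and 9 markers of striatum and septum averaged 7.01, against 5.66 to 6.47. Astrocyte markers (10) averaged 9.54, against 9.60 to 9.86. Fibcd1, a marker of CA1 pyramidal cells, had a signal of 5.05 there, against 193 and 208 on the other 12 m arrays. The Ctrl28 array 1 had a wide gap between 3′ and 5′ control probe sets. This gap, averaged on the log2 scale over the transcripts of Actb and Gapdh, widens as RNA degrades, and was 2.39 there, against 0.62 to 0.86 in 12 m, 0.33 to 0.42 in IH28D, 0.47 to 0.49 in IH5DR2, 0.46 to 0.53 in IH5D, 0.82 and 0.97 on the other Ctrl28 arrays and 0.34 to 0.47 in Ctrl. The gap was thus larger in 12 m and Ctrl28 than in Ctrl. Some marker averages did not overlap between Ctrl28 and Ctrl. Pyramidal markers averaged 8.29 to 8.75 in Ctrl28 and 8.97 to 9.13 in Ctrl, and 8.567 and 8.625 on the 12 m arrays 1 and 2. Microglia markers averaged 7.23 to 7.33 in Ctrl28 and 7.64 to 7.91 in Ctrl. Dentate markers averaged 7.43 to 7.57 and 7.15 to 7.37, and astrocyte markers 9.77 to 9.81 and 9.70 to 9.71. The part of these differences in the results was not tested. Log2 signals of 12 interneuron markers averaged 8.62 to 9.04 over all 18 arrays. Those of 11 choroid plexus markers averaged 3.39 to 4.49 in 12 m, 5.46 to 8.53 in IH28D, 6.27 to 8.70 in IH5DR2, 4.97 to 8.74 in IH5D, 8.38 to 8.83 in Ctrl28 and 5.09 to 8.73 in Ctrl, and their part in the results was not tested. Member calls that rest on the 12 m array 3 or the Ctrl28 array 1 are given with and without them, by gene or by count. Likeness to other genes and the changes of single pathway genes in each comparison are given with all arrays only. Correlations were not computed without the Ctrl28 array 1.

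Transcripts of alpha2, alpha3, alpha4, beta1 and beta2 were higher in 12 m than in Ctrl hippocampi, by 0.82 to 2.01 on the log2 scale, although the lowest of these, that of alpha3, was not called without the 12 m array 3. By 1 probe set each, transcripts of alpha2 and beta2 were also called higher in all 3 IHT groups than in their controls, by 0.85 to 1.13. The calls of IH28D against Ctrl28 were lost without the Ctrl28 array 1. Those of IH5D and of IH5DR2 against Ctrl were lost with the replicate number as a block, as was the alpha2 call of IH28D against Ctrl28. Leaving out 1 array at a time lost the call of IH5DR2 in 10 of 18 fits for beta2 and in 7 for alpha2. With all arrays, no other probe set of these genes was called in IH5DR2 or IH5D against Ctrl. The transcript of delta was lower in Ctrl28 than in Ctrl, and that of alpha5 was called in none of the 8 comparisons with all arrays in. In bulk tissue, fewer cells of a type and less RNA per cell cannot be told apart. Changes are log2 fold changes with standard errors from 1 limma fit of all 18 arrays. Adjusted p-values are those of Benjamini and Hochberg over 22932 probe sets, and a probe set was called where its adjusted p was below 0.05. Signals are given unlogged, in arbitrary units, for the brightest probe set of each gene by its mean, and levels are not set against each other between genes. The plot of signals on the 18 arrays shows these values for all 7 genes.

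**Figure D1:**
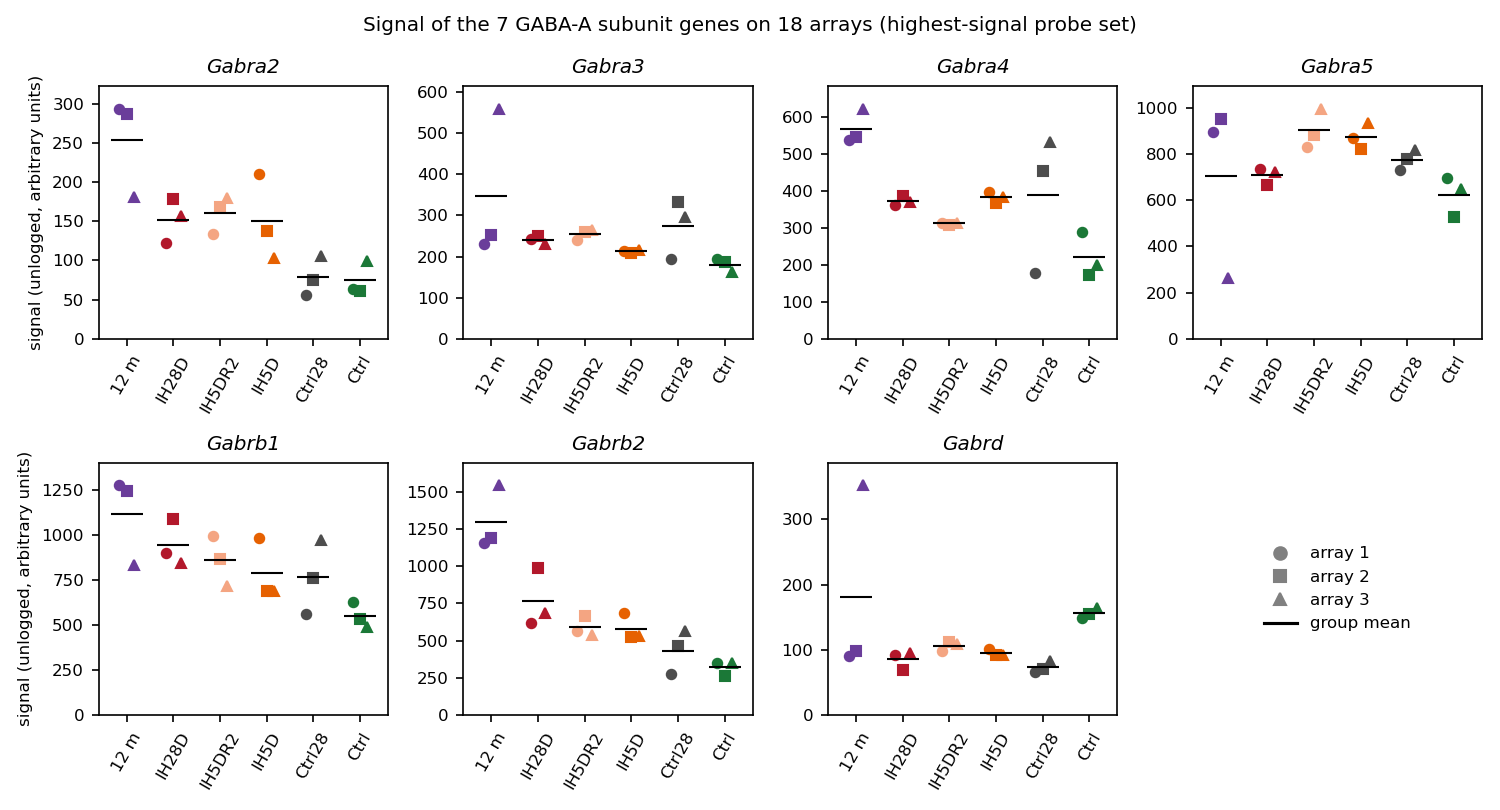
Unlogged signal (vertical axis, arbitrary units, from 0) of the highest-signal probe set of each of the 7 genes in the 6 groups (horizontal axis), with 1 point per array (circle, square and triangle for arrays 1, 2 and 3) and a line at the mean of 3 arrays. Gabrb2 lay at 1154 to 1542 in 12 m and at 264 to 354 in Ctrl, while the 12 m array 3 lay far above the other 12 m arrays for Gabra3 and Gabrd and far below them for Gabra5.

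Gabrb2 encodes beta2, a beta subunit that is widespread in the adult brain. Its signals (probe set 1429685_at) were 1154, 1191 and 1542 in 12 m, 616, 989 and 686 in IH28D, 565, 666 and 538 in IH5DR2, and 686, 525 and 532 in IH5D, against 273, 464 and 562.5 in Ctrl28 and 347, 264 and 354 in Ctrl. The 12 m arrays lay above all others, every IHT array lay above every Ctrl array, and the 3 IHT groups overlapped with each other. Ctrl28 overlapped with Ctrl. By group mean the order was 12 m, IH28D, IH5DR2, IH5D, Ctrl28 and Ctrl, in which only the step from 12 m to IH28D was larger than the ranges of the arrays. The change was 2.01 ± 0.23 in 12 m against Ctrl (SE, adjusted p = 1.57e-05), 0.85 in IH28D against Ctrl28 (adjusted p = 0.0316), 0.88 in IH5DR2 against Ctrl (0.0412) and 0.85 in IH5D against Ctrl (0.0386). Without the Ctrl28 array 1 the change in IH28D against Ctrl28 was 0.55 (0.0686), and with the gap between 3′ and 5′ probe sets as a covariate 0.33 (0.481). The call in IH5D against Ctrl was lost with the replicate number as a block (0.0539), as was that in IH5DR2 against Ctrl. Leaving out 1 array at a time lost the call in IH28D against Ctrl28 in 3 of 18 fits, in IH5DR2 in 10 and in IH5D in 7. The other 3 tested probe sets of Gabrb2 gave changes of 1.75 to 1.92 in 12 m against Ctrl, all called, and of 0.69 to 0.94 in IH28D against Ctrl28, none called, and none of them was called in IH5DR2 or IH5D against Ctrl. Over the 18 arrays the 4 probe sets correlated with each other at r = 0.952 to 0.980, which describes their likeness, since they share transcript and RNA.

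Gabra2 encodes alpha2, the subunit of axon initial segment synapses. Its signals (1455444_at) were 293, 287 and 180.5 in 12 m, 122, 178 and 156 in IH28D, 134, 168 and 179.7 in IH5DR2, and 210.1, 137 and 103 in IH5D, against 55.9, 74.8 and 106 in Ctrl28 and 64.02, 60.8 and 99.4 in Ctrl. All arrays of 12 m and of the 3 IHT groups lay above all Ctrl arrays, the highest Ctrl28 array lay above the lowest IH5D array, and Ctrl28 overlapped with Ctrl. The IHT groups could not be ordered, since their arrays overlapped. The change was 1.76 ± 0.28 in 12 m against Ctrl (SE, adjusted p = 0.000146), 0.98 in IH28D against Ctrl28 (0.0434), 1.13 in IH5DR2 against Ctrl (0.0374) and 0.98 in IH5D against Ctrl (0.0491). Without the Ctrl28 array 1 the change in IH28D against Ctrl28 was 0.75 (0.0947). With the block the adjusted p was 0.0639 in IH28D against Ctrl28 and 0.0699 in IH5D against Ctrl, and the call in IH5DR2 against Ctrl was lost. Leaving out 1 array at a time lost the call in IH28D against Ctrl28 in 12 of 18 fits, in IH5DR2 in 7 and in IH5D in 15. A further Gabra2 probe set, 1443865_at, was higher by 1.36 in IH28D against Ctrl28 (adjusted p = 0.0409) but was not called there without the Ctrl28 array 1 (0.84, adjusted p = 0.107), nor, with all arrays, in IH5DR2 (0.0634) or IH5D (0.138) against Ctrl. The third tested one, 1421738_at, ranged from 27.3 to 148 within 12 m and was called only in IH28D against Ctrl (2.04, adjusted p = 0.0294).

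The DNA before the annotated starts of the genes that changed most often is shown here. Of these, Gabra2, Gabra4 and Gabrb1 are neighbours on chromosome 5, with Gabrg1 beside Gabra2. Each window runs from 250 bases before to 50 bases after an annotated start (RefSeq, GRCm38.p6), 5′ to 3′ on the strand of the gene. Capitals mark matches, on either strand, of the GC box GGGCGG, the TATA box TATAAA and the NRF1 motif (GCGC and TGCGC with any 1 base between them), none of which overlap here.
Gabrb2, chr11:42420190-42420489 (+): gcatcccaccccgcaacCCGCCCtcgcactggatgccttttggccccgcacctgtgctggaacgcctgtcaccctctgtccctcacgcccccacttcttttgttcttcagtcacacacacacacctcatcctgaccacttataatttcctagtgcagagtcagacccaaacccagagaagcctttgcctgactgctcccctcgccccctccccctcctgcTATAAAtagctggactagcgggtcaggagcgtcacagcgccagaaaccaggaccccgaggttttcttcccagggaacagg
Gabra2, chr5:71095800-71096099 (-): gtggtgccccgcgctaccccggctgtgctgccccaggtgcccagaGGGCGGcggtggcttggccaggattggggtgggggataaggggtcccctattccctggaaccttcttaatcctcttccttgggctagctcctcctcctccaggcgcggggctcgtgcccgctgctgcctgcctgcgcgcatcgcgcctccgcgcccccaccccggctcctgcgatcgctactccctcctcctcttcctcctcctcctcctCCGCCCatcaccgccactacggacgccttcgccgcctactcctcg
Gabra4, chr5:71658259-71658558 (-): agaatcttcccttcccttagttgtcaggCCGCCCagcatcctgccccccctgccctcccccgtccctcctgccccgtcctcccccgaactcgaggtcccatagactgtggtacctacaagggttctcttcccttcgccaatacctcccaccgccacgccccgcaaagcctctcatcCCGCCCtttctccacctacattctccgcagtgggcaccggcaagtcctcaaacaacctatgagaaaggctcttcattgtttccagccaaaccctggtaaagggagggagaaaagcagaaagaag
Gabrb1, chr5:71657671-71657970 (+): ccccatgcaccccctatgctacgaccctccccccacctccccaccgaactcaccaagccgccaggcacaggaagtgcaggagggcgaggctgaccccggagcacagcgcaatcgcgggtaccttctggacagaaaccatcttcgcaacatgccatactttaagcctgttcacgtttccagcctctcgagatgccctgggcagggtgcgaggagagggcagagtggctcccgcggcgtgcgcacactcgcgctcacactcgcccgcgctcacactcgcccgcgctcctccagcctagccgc
Gabrb1, chr5:71699682-71699981 (+): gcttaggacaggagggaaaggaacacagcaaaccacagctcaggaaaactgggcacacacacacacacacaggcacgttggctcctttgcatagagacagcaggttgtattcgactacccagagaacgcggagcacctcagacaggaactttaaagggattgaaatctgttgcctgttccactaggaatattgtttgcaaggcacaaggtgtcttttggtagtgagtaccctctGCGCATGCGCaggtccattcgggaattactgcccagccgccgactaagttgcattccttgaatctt
The Gabra2 window held GC boxes at positions -205 and 5 from the start, had 25 CpG pairs and was 70.0% G or C, against medians of 7 CpG pairs and 52.7% over 32817 windows of 300 bases. The Gabra4 window held GC boxes at -222 and -74, and the Gabrb2 window held a GC box at -233 and a TATA box at -30. The first Gabrb1 window, which lies beside that of Gabra4 on the opposite strand, held none of the 3 motifs, and its second window held an NRF1 motif at -16. GGGCGG occurred in 35.6% of all windows, TATAAA in 13.6% and the NRF1 motif in 4.59%, so that the commonest of the 3 is shared with many genes. These matches describe letters, and binding of a factor was not measured. Gabrb2 has 2 further windows and Gabra3 has 2, and together with the 1 of Gabra5 these are not printed. Gabrb2 lies on chromosome 11, Gabra5 on 7, Gabra3 on X and Gabrd on 4.

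Gabrb1 encodes beta1, which is found in the hippocampus with alpha2 among others. Its signals (1419719_at) were 1273, 1242 and 833 in 12 m, 897, 1088 and 844 in IH28D, 992, 865 and 718 in IH5DR2, and 981, 689 and 687.5 in IH5D, against 563, 763 and 970.1 in Ctrl28 and 628, 536 and 488 in Ctrl. All arrays of 12 m and of the IHT groups lay above all Ctrl arrays, while Ctrl28 overlapped with Ctrl and with every other group. The change was 1.001 ± 0.210 in 12 m against Ctrl (SE, adjusted p = 0.00103) and 0.78 in IH28D against Ctrl (0.0121). It was 0.33 in IH28D against Ctrl28, 0.64 in IH5DR2 against Ctrl and 0.50 in IH5D against Ctrl, none of which was called. A second probe set, 1435095_at, was called in 12 m against Ctrl (1.46), 12 m against Ctrl28 (1.12) and IH28D against Ctrl (1.004), and the third, 1443205_at, in none of the 8 comparisons.

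Gabra4 encodes alpha4, the partner of delta in dentate granule cells. Its signals (1433707_at) were 536, 545 and 621 in 12 m, 361, 386 and 370.1 in IH28D, 313, 309 and 314 in IH5DR2, and 396, 368 and 382 in IH5D, against 177, 454 and 532 in Ctrl28 and 289, 172 and 198 in Ctrl. The 12 m arrays lay above all others and the IHT arrays above all Ctrl arrays. IH5DR2 lay below IH5D with no overlap, a difference that was not called (adjusted p = 1.0). Ctrl28 spanned from the lower end of Ctrl to just under 12 m, with its array 1 lowest. The change was 1.40 ± 0.28 in 12 m against Ctrl (SE, adjusted p = 0.000663) and 0.80 in IH28D against Ctrl (0.0371). It was 0.09 in IH28D against Ctrl28 (0.883), 0.54 in IH5DR2 against Ctrl (0.214) and 0.83 in IH5D against Ctrl (0.0722). The second probe set, 1429330_at, was called in 12 m against Ctrl alone (0.80, adjusted p = 0.0358).

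Gabra3 encodes alpha3, a subunit that is more abundant in neocortex than in hippocampus. Its signals (1436957_at) were 230.4, 251 and 559 in 12 m, 242, 251 and 230.4 in IH28D, 241, 259 and 264 in IH5DR2, and 212, 209.5 and 215 in IH5D, against 194.1, 332 and 296 in Ctrl28 and 194.0, 186 and 162 in Ctrl. Array 3 stood far above the other 12 m arrays. All arrays of 12 m and of the IHT groups lay above Ctrl, and IH5D lay below IH28D and IH5DR2. The change in 12 m against Ctrl was 0.82 ± 0.25 (SE, adjusted p = 0.0112) with all arrays and 0.42 (0.0647) without the 12 m array 3. In the IHT groups it was -0.15 in IH28D against Ctrl28, 0.50 in IH5DR2 against Ctrl and 0.24 in IH5D against Ctrl, none of which was called.

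Gabra5 encodes alpha5, the extrasynaptic subunit of pyramidal cells. Its signals (1433602_at) were 895, 955 and 264 in 12 m, 736, 665 and 722 in IH28D, 831, 883 and 996 in IH5DR2, and 869.8, 823 and 937 in IH5D, against 733, 779.9 and 818 in Ctrl28 and 699, 527 and 647 in Ctrl. The 12 m arrays held both the lowest value of all 18 and 2 of the 4 highest. IH5DR2, IH5D and Ctrl28 arrays lay above all Ctrl arrays, while IH28D overlapped with Ctrl and Ctrl28. The change in 12 m against Ctrl was -0.03 (adjusted p = 0.948) with all arrays and 0.58 ± 0.13 (SE, adjusted p = 0.00317) without the 12 m array 3. With all arrays it was 0.54 in IH5DR2 against Ctrl (0.268) and 0.50 in IH5D against Ctrl (0.297). Without the 12 m array 3, from which the fit also takes its spread, both of these were called (adjusted p = 0.0281 and 0.0289).

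Gabrd encodes delta, the subunit of tonic inhibition in dentate granule cells. Its signals (1449980_a_at) were 91.2, 98.4 and 352 in 12 m, 92.0, 69.2 and 95.15 in IH28D, 98.7, 111 and 109 in IH5DR2, and 102, 91.6 and 91.75 in IH5D, against 66.1, 70.0 and 83.15 in Ctrl28 and 148.5, 155 and 164 in Ctrl. Ctrl lay above every other array except the 12 m array 3. The change in Ctrl28 against Ctrl was -1.10 (adjusted p = 0.0186), the only call among the 15 probe sets there. In 12 m against Ctrl it was -0.09 (0.843) with all arrays and -0.72 ± 0.17 (SE, adjusted p = 0.0034) without the 12 m array 3. In IH5DR2 against Ctrl it was -0.55 (0.291, and 0.0469 without that array), and in IH5D against Ctrl -0.71 (0.174, and 0.0188 without it). In 12 m against Ctrl28 Gabrd was called higher with all arrays (1.01, adjusted p = 0.0455) but not without the 12 m array 3 (0.38). The plot against hippocampal marker signals shows where that array lies for Gabra5, Gabrd and Gabra3.

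**Figure D2:**
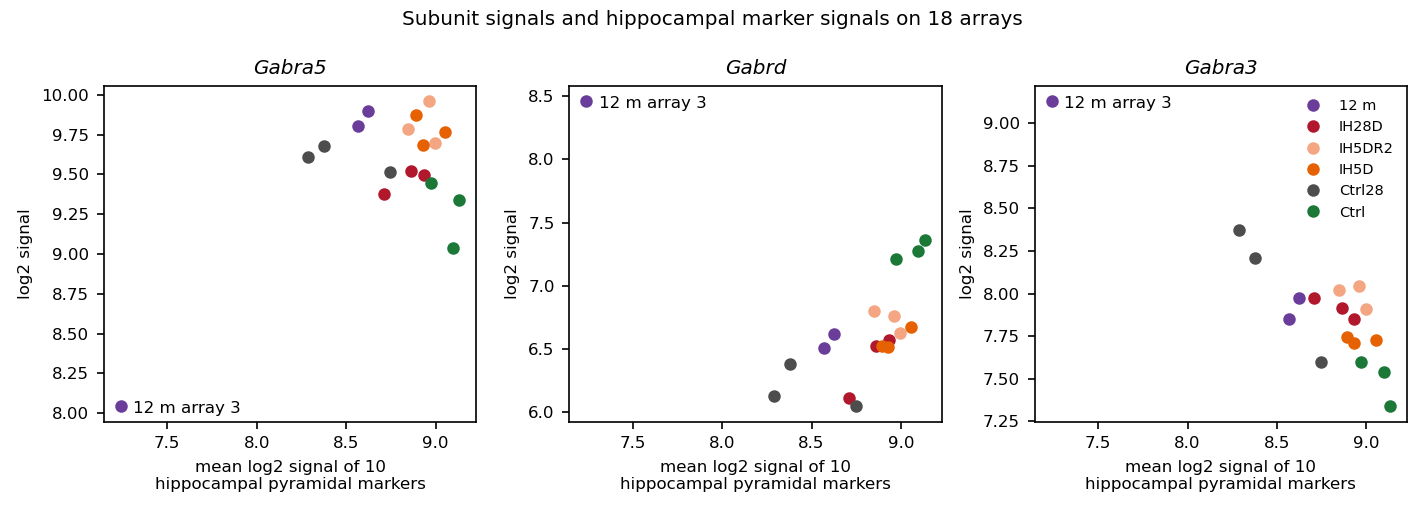
Log2 signal (vertical axes) of Gabra5, Gabrd and Gabra3 against the mean log2 signal of 10 hippocampal pyramidal markers (horizontal axes), with 1 point per array, coloured by group. The 12 m array 3 lies alone at 7.24 on the horizontal axis, below all other arrays for Gabra5 and above all others for Gabrd and Gabra3.

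To describe how the subunits differed with age, 12 m was compared with both controls. The 15 probe sets are of 7 genes that were chosen with earlier results of these data known. Shares of members set beside those of all probe sets, here and below, therefore describe this list and do not test it. In 12 m against Ctrl, 11 of 15 probe sets rose and none fell, where 26.5% of all 22932 rose and 50.6% were called in either direction. The median change was 1.46 over the members and -0.08 over all probe sets, and in 11 of 15 the 12 m arrays lay above all Ctrl arrays, as in 29.7% of all. Without the 12 m array 3, 13 rose and Gabrd fell, where 45.7% of all were called, and without both this array and the Ctrl28 array 1, 14 rose and Gabrd fell, where 28.5% of all rose and 56.3% were called. In 12 m against Ctrl28, 8 of 15 rose and none fell, where 9.87% of all rose and 16.8% were called. In 9 of 15 the 12 m arrays lay above all Ctrl28 arrays, as in 16.9% of all. The 8 called were all 4 probe sets of Gabrb2, 2 of Gabra2, 1 of Gabrb1 and that of Gabrd. Gabrb2 (1.63, adjusted p = 0.000443) and Gabra2 (1.70, 0.00127) thus rose against both controls, whereas Gabra3 (0.25), Gabra4 (0.69) and Gabrb1 (0.55) by their highest-signal probe sets were called against Ctrl and not against Ctrl28. Without both arrays, 6 rose, where 7.68% of all rose and 13.7% were called. With the gap between 3′ and 5′ probe sets added as a covariate, 13 were called in 12 m against Ctrl, where 60.8% of all were, and 4 in 12 m against Ctrl28, where 14.5% were.

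For the effect of 28 days of IHT, IH28D was compared with Ctrl28, its own control, and with Ctrl. In IH28D against Ctrl28, 3 of 15 probe sets rose, 2 of Gabra2 and 1 of Gabrb2, and none fell, where 5.62% of all rose and 7.79% were called. Their arrays did not overlap with those of Ctrl28, as in 13.1% of all probe sets higher in IH28D. These calls rest on the Ctrl28 array 1: without it none of the 15 was called, where 14.0% of all were, Gabra2 changed by 0.75 (adjusted p = 0.0947) and Gabrb2 by 0.55 (0.0686), and the median over the members was 0.15, against 0.66 with all arrays. Without both arrays that stood apart, Gabrb2 rose (0.55, adjusted p = 0.0471) and Gabra3 fell (-0.38, 0.0324), where 10.2% of all rose and 16.0% were called. The count was also 0 without the IH28D array 2 or 3 (4.05% and 3.77% of all called), 1 without the IH28D array 1 (5.11%), the 12 m array 2 (6.90%) or any 1 of the IH5DR2 arrays (6.46% to 6.74%), and 5 without the Ctrl28 array 3 (7.74%). With the gap as a covariate Gabra2 changed by 0.58 (0.348) and Gabrb2 by 0.33 (0.481). In IH28D against Ctrl, 10 of 15 rose and none fell, where 19.8% of all rose and 31.5% were called, and this comparison differs by both treatment and time of keeping. In 12 of 15 the IH28D arrays lay above all Ctrl arrays, as in 28.3% of all, and for Gabrd they lay below, as in 23.3%. Without both arrays that stood apart 12 rose and Gabrd fell, where 26.6% of all rose and 46.6% were called. The count was 4 without the IH28D array 2 (14.3% of all called), 5 without the Ctrl array 2 (13.3%) and 6 without the Ctrl array 3 (19.2%).

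For 5 days of IHT and for the return to normoxia, IH5D and IH5DR2 were compared with Ctrl and with each other. In IH5DR2 against Ctrl, 2 of 15 probe sets rose, 1 of Gabra2 and 1 of Gabrb2, where 3.88% of all rose and 4.70% were called. In IH5D against Ctrl the same 2 rose, where 5.59% of all rose and 6.26% were called. The arrays of 13 probe sets in IH5DR2 and of 12 in IH5D lay above all Ctrl arrays, as in 21.7% and 22.1% of all, and Gabrd lay below Ctrl in both, as did 17.7% and 17.9% of all. The median change over the members was 0.63 in IH5DR2 and 0.83 in IH5D, against 0.015 in IH5DR2 and -0.004 in IH5D over all probe sets. In IH5DR2 against IH5D none of the 15 was called by limma, and none had an unadjusted p below 0.05, where 0% of all were called and 877 of all had such a p. Arrays did not overlap for Gabra3, higher in IH5DR2, and for Gabra4 and 1 probe set of Gabra2, lower in IH5DR2, as for 7.32% of all higher and 7.81% lower. For Gabra2 the difference was 0.15, with a 95% interval of -0.45 to 0.75.

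Calls after 5 days of IHT were few enough that single arrays moved them. Without any 1 of the IH5D arrays, or without the Ctrl array 2 or 3, the 12 m array 2 or the IH5DR2 array 1, no member was called in IH5D against Ctrl, where 0.0436% to 4.41% of all were. Without any 1 of the IH28D arrays, the 12 m array 1, the IH5DR2 array 2 or 3 or the Ctrl28 array 2, 1 was called, where 4.31% to 5.84% of all were, without the Ctrl28 array 3, 5 were, where 8.43% of all were, and without the Ctrl28 array 1, which enters only through the shared spread, 9 were called, where 23.0% of all were. Without any 1 of the IH5DR2 arrays, or without the Ctrl array 2 or 3 or the IH5D array 2, none was called in IH5DR2 against Ctrl, where 0% to 2.66% of all were. Without the 12 m array 1 or 2, the IH28D array 3, the IH5D array 3 or the Ctrl array 1, 1 was called, where 2.42% to 10.2% of all were, without the Ctrl28 array 3, 4 were, where 6.42% of all were, and without the Ctrl28 array 1, 8 were, where 21.4% of all were. Without the 12 m array 3, 4 were called in each, where 6.65% of all were in IH5D and 4.98% in IH5DR2. Without both the 12 m array 3 and the Ctrl28 array 1, 12 rose and Gabrd fell in IH5D, where 26.0% of all were called, and 10 rose and Gabrd fell in IH5DR2, where 16.5% rose and 24.4% were called. IH5D and Ctrl arrays of the same replicate number deviated together. With the replicate number as a block over all groups no member was called in IH5D against Ctrl (adjusted p = 0.0699 for Gabra2 and 0.0539 for Gabrb2), where 3.38% of all were, and with the block in a fit of these 2 groups alone 12 rose and Gabrd fell, where 18.2% of all rose and 31.6% were called.

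**Figure D3:**
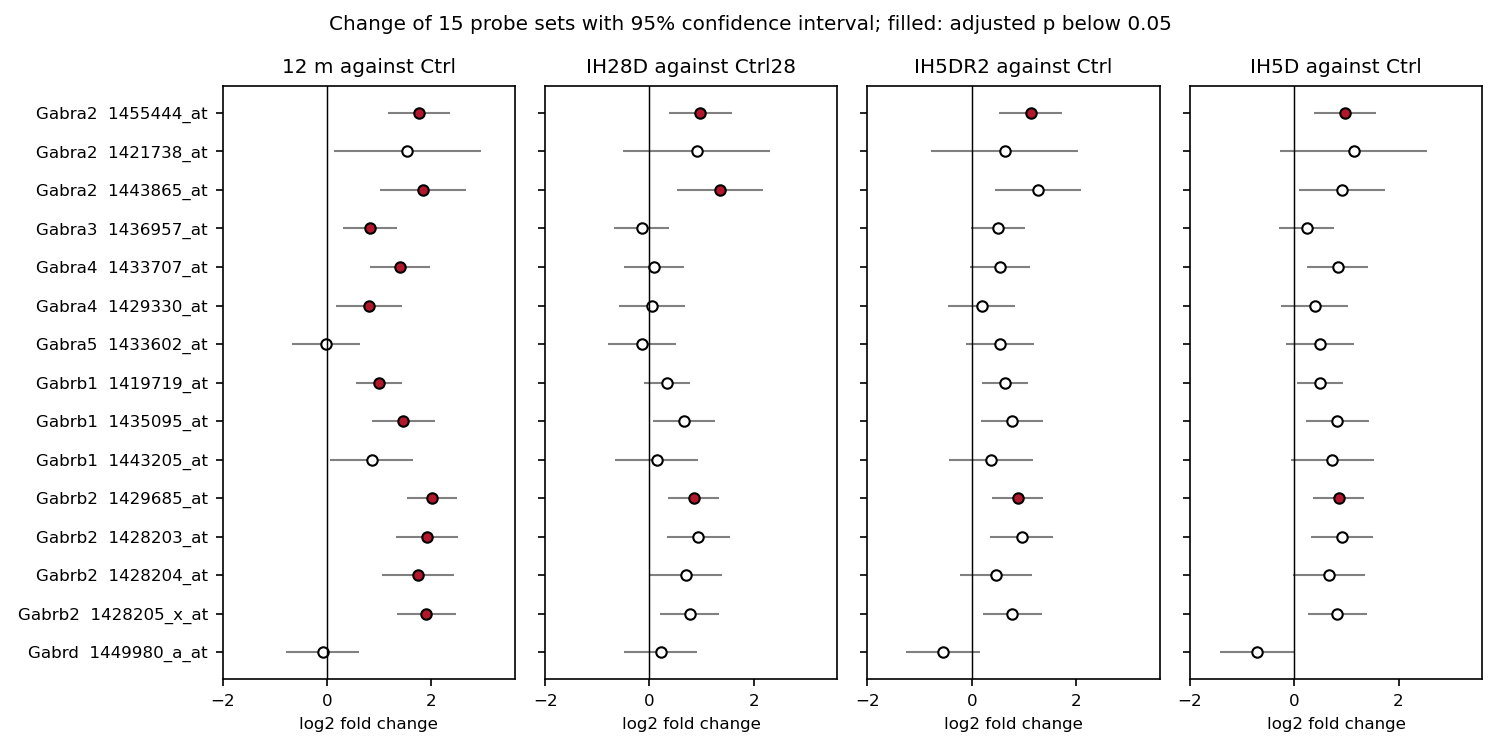
Log2 fold change (horizontal axes) with its 95% confidence interval for the 15 tested probe sets (vertical axis) in 4 comparisons, with filled points where the adjusted p was below 0.05. In 12 m against Ctrl 11 points are filled, in IH28D against Ctrl28 3, and in IH5DR2 and IH5D against Ctrl 2 each, while most unfilled points of the last 2 panels also lie above 0, apart from Gabrd.

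Controls alone also differed. In Ctrl28 against Ctrl, Gabrd fell and none of the other 14 probe sets was called, where 16.1% of all fell and 32.9% were called. Arrays did not overlap for Gabra3 and Gabra5, higher in Ctrl28, and for Gabrd, lower in Ctrl28, as for 16.2% of all higher and 19.6% lower. All 14 changes other than that of Gabrd were above 0, with a median over the 15 of 0.38, against 0.03 over all probe sets. Without the Ctrl28 array 1, 12 of 15 rose and Gabrd fell, among them Gabra4 (1.20, adjusted p = 1.15e-05) and Gabra3 (0.80, 0.0108), where 51.2% of all were called, and without both arrays that stood apart 13 rose and Gabrd fell, where 29.2% of all rose and 53.6% were called. Without the Ctrl28 array 2, or the Ctrl array 2 or 3, no member was called, where 19.7% to 24.0% of all were, without the Ctrl array 1 there were 2 calls, where 33.4% of all were called, and without the 12 m array 3 there were 3, where 33.9% of all were called.

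Differences between effects were tested in the same fit. The 28-day effect (IH28D against Ctrl28) minus the 5-day effect (IH5D against Ctrl) was called for none of 15 probe sets by limma, and none had an unadjusted p below 0.05, where 7.12% of all were called and 5303 of all had such a p. Without the Ctrl28 array 1 the difference was called for 2, both below 0, where 25.5% of all were called, without the 12 m array 3 for 2, 1 in each direction, where 7.85% were, and without both arrays for 6, of which 5 were below 0, where 28.2% of all were called. The 12 m effect (12 m against Ctrl) was larger than the 28-day effect for 4 of 15 and smaller for none. In either direction this is no larger a share than the 30.5% of all called, of which 49.3% were above 0. The 4 were Gabra4 (1.31, adjusted p = 0.0187), Gabra3 (0.97, 0.0437) and 2 probe sets of Gabrb2 (1.16, 0.0137, and 1.12, 0.033). This difference contains the change in Ctrl28 against Ctrl, which was 0.71 for Gabra4, 0.57 for Gabra3, and 0.38 and 0.57 for these Gabrb2 probe sets, none called. Without both arrays that stood apart, the 12 m effect was larger for 14 and smaller for Gabrd (-0.87, adjusted p = 0.00425), where 25.4% of all were larger and 48.1% were called. The count of calls was 12 without the Ctrl28 array 1, where 47.9% of all were called, 2 without the IH28D array 1 or 3 (22.2% and 24.5%), and 1 without the Ctrl28 array 2 or 3 or the Ctrl array 2 (21.2% to 23.1%). The call of Gabra3 was lost in 14 of 18 fits that left out 1 array, and its difference was 0.57 without the 12 m array 3. That of Gabra4 was lost in 3.

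The plot of correlations shows how the signals varied together over the 18 arrays. Gabra2, Gabra4, Gabrb1 and Gabrb2 correlated with each other at r = 0.658 to 0.873, highest for Gabra2 with Gabrb2, and Gabra3 correlated with Gabra4 at 0.702, with Gabrb2 at 0.640, with Gabrb1 at 0.397 and with Gabra2 at 0.309. Gabra5 and Gabrd correlated at r = -0.757 (Spearman -0.222) with all arrays and at -0.323 without the 12 m array 3, and Gabra3 with Gabrd at 0.344 and -0.596. These values describe 18 arrays that share scaling and RNA quality, and group means enter them. After the group means were removed, the 6 pairs among Gabra2, Gabra4, Gabrb1 and Gabrb2 correlated at 0.348 (Gabra2 with Gabra4) to 0.776 (Gabra4 with Gabrb2). Of 11648 genes, those with the most similar log2 signals over the 18 arrays were Fut9 (r = 0.985), Atrx (0.980) and Vps13a (0.979) for Gabrb2, Ttll7, Ddx5 and Ino80d (0.973 each) for Gabra4, and Akap11 (0.952) for Gabrb1. For Gabra2 they were Purg (0.932), Ftx (0.922) and Ttc14 (0.915), for Gabra3 Spcs3 (0.917), for Gabra5 Npy2r (0.922) and for Gabrd Lrrc75a (0.907). The Spearman values were 0.884 for Gabra3 with Spcs3, 0.645 for Gabra5 with Npy2r and 0.812 for Gabrd with Lrrc75a. Likeness was not computed without the arrays that stood apart.

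**Figure D4:**
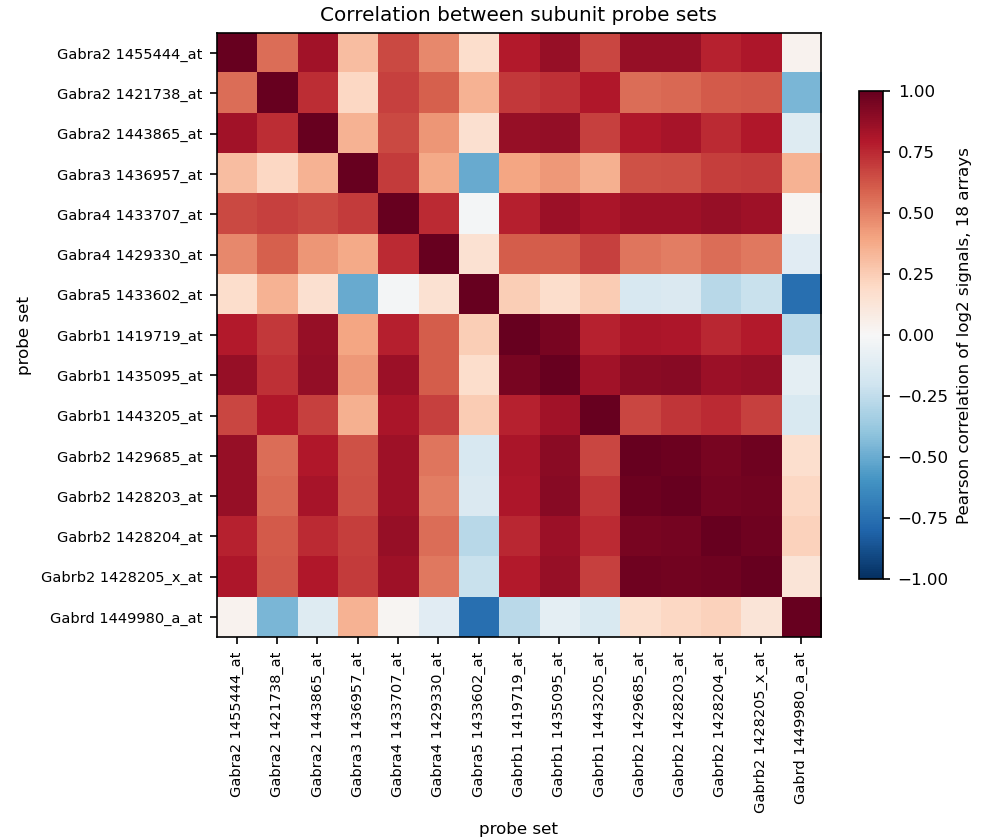
Pearson correlation of log2 signals over 18 arrays (colour, from -1 in blue to 1 in red) between the 15 tested probe sets (both axes). The probe sets of Gabrb2 form a block at 0.952 to 0.980, all pairs among the probe sets of Gabra2, Gabra4, Gabrb1 and Gabrb2 lie at 0.44 or above, and Gabra5 with Gabrd is the lowest pair at -0.757.

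Of 8 further subunit genes, counted by probe sets annotated to 1 gene, only Gabrg1, which encodes gamma1 and lies beside Gabra2, had a mean signal above 20. Its signals averaged 147 ± 1.77 in 12 m, 87.5 ± 27.5 in IH28D, 66.1 ± 14.5 in IH5DR2 and 87.8 ± 6.74 in IH5D, against 114 ± 64.8 in Ctrl28 and 39.8 ± 7.65 in Ctrl (SD, n = 3 arrays each). It was higher than in Ctrl by 1.91 in 12 m (adjusted p = 0.000653), by 1.11 in IH28D (0.0337) and by 1.29 in Ctrl28 (0.0148), and its change of 1.16 in IH5D was not called (0.0674). Of 25 tested genes of receptor assembly, anchoring and traffic, 6 rose and 11 fell in 12 m against Ctrl, where 26.5% of all probe sets rose and 50.6% were called. Without both arrays that stood apart 7 rose and 10 fell, where 56.3% of all were called. In Ctrl28 against Ctrl 2 rose and 8 fell, where 16.1% of all fell and 32.9% were called. Without both arrays 8 rose and 9 fell there, where 53.6% of all were called. Their median change in 12 m against Ctrl was -0.25, against -0.08 over all probe sets. Gabarap, which binds gamma subunits and takes part in autophagy, fell in 12 m against Ctrl (-0.88, adjusted p = 0.000289) and in Ctrl28 against Ctrl (-0.88, 0.000516). Dag1 fell in 12 m against Ctrl (-0.65, 0.000722) and against Ctrl28 (-0.70, 0.00229). Iqsec3, a postsynaptic partner of gephyrin, fell in 12 m against Ctrl (-0.52, 0.00115) and rose in IH28D against Ctrl28 (0.51, 0.00988). Ctrl28 was itself lower than Ctrl for Iqsec3 (-0.71, 0.000209), and the change in IH28D against Ctrl was not called (-0.21, 0.163). In IH5DR2 and IH5D against Ctrl, none of the 25 was called by limma, where 4.70% and 6.26% of all probe sets were. Without both arrays 3 rose and 1 fell in IH5DR2, where 24.4% of all were called, and 3 rose and 4 fell in IH5D, where 26.0% were.

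Of 9 tested genes of GABA synthesis, transport and breakdown, 1 rose and 2 fell in 12 m against Ctrl, where 26.5% of all probe sets rose and 50.6% were called. Their median change was 0.09. The counts were the same without both arrays, where 56.3% of all were called. Gad2, which encodes a GABA-synthesising enzyme of interneurons, was the one that rose (0.97, adjusted p = 0.001), and it also rose in IH28D (0.94, 0.00384) and IH5D (0.75, 0.0399) against Ctrl. Against Ctrl28, its own control, IH28D was not called for Gad2 (0.42, 0.214). Slc6a11, which encodes the astrocyte GABA transporter GAT3, fell in 12 m (-0.74, 0.00155) and in Ctrl28 (-0.79, 0.00169) against Ctrl. Slc6a13 fell in IH5D against Ctrl (-1.28, 0.0439), at low signals that averaged 18.6 in IH5D and 45.8 in Ctrl. Of 5 tested genes of GABA-B receptors and their partners, 2 rose and 1 fell in 12 m against Ctrl, with a median of 0.37. The counts were the same without both arrays. Of all probe sets, 50.6% were called there with all arrays and 56.3% without both. Kcnj3, a subunit of the potassium channel that GABA-B receptors open, rose in all 5 other groups against Ctrl, by 1.29 in 12 m, 0.59 in IH28D, 0.56 in IH5DR2, 0.84 in IH5D and 0.88 in Ctrl28, whereas Gabbr1, a GABA-B receptor subunit, fell in 12 m (-0.56, 0.000848) and in Ctrl28 (-0.59, 0.00104). Kctd8 rose in 12 m (0.85, 0.0207), IH28D (1.05, 0.0131) and Ctrl28 (0.95, 0.0189) against Ctrl, at low signals that averaged 23.2 in Ctrl. Of 9 tested chloride transporter and channel genes, 3 rose in 12 m against Ctrl and none fell, with a median of 0.37, where 26.5% of all probe sets rose and 50.6% were called. Without both arrays 5 rose and 2 fell, where 56.3% of all were called. Among these genes Wnk3, a kinase that regulates chloride cotransporters, rose in 12 m against Ctrl by 1.35 (0.000444) and Clcn3, a chloride and proton exchanger of vesicles, by 0.89 (0.000314). Clcn3 fell in IH28D against Ctrl28 (-0.62, 0.0254), but Ctrl28 was itself higher than Ctrl (1.26, 3.51e-05). Against Ctrl, Clcn3 was called higher in IH28D (0.64, 0.00794), IH5DR2 (0.83, 0.0177) and IH5D (0.76, 0.0171).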

How the data were processed

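The authors summarised probe intensities by MAS5 and scaled them. The values they deposited are log2 signals of 45101 probe sets. The unit was checked on the table: the trimmed mean of the unlogged signals was 100.03 to 100.04 on every array. Probe sets were named through the platform annotation of GEO, in which 34945 have 1 gene, 932 several and 9160 none, and 64 are controls of the manufacturer. The members and the gene lists were chosen with earlier results of these data known. Groups and replicate numbers are those of the labels. The 22932 probe sets whose unlogged signal averaged above 20 were fitted with limma 3.58.1 (R 4.3.3) with a mean per group, a variance trend and 12 residual degrees of freedom, and p-values were adjusted by the method of Benjamini and Hochberg. The script was tested on simulated data. The number of arrays limits the precision, and arrays correlated at 0.904 to 0.979 within groups.

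Members are named by every probe set, with array values for the one of highest mean signal. Pathway genes stand for the probe set of highest mean signal, and up to 3 per list with the smallest p in any comparison are named. Likeness is the Pearson correlation over 18 arrays, with 3 genes listed per member. Deviations of IH5D and Ctrl arrays from their group means correlated at 0.161, 0.225 and 0.172 for replicate numbers 1, 2 and 3. No other comparison with a control had all such correlations above 0.1. The main fit had no replicate block, so that its values for IH5D against Ctrl are not paired. Replicate numbers entered only in alternatives, as a block over all groups or, chosen after seeing the data, as a block in a fit of IH5D and Ctrl alone. Alternatives were the minimum signal, the choice of probe set, median centring, quantile normalization, the variance trend, the groups fitted, array weights, the 3′ to 5′ gap, the replicate block, the methods' t-test and leaving out arrays. Promoter windows are those of RefSeq (GRCm38.p6), which matched 6 of the 7 genes. Some other subunit genes are not reported here.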

Additional observations from a re-analysis of the deposited data

Results flagged for a closer look

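The results below were taken up because a test of the difference between effects passed. Each value is the first effect minus the second, in log2 units, with adjusted p-values from limma over 22932 probe sets. The effect in 12 m against Ctrl exceeded that of IH28D against Ctrl28 for Gabra3 (1436957_at) by 0.97 (adjusted p = 0.0437), for Gabra4 (1433707_at) by 1.31 (0.0187), and for Gabrb2 by 1.16 (1429685_at, 0.0137) and 1.12 (1428205_x_at, 0.033). These are 4 of 15 member probe sets, all above 0. In either direction this is no larger a share than the 30.5% of all probe sets that passed the same test, of which 49.3% were above 0. It exceeded it for Gabrg1 by 2.09 (0.00789), for Kcnj3 by 1.58 (0.000102), for Clcn3 by 1.51 (0.000213), for Wnk3 by 0.98 (0.0466) and for Wnk1 by 0.58 (0.0188). Among the named genes the difference was below 0 for Gabarap (-1.13, 0.0015), Slc6a11 (-1.05, 0.00333), Iqsec3 (-1.03, 0.000259) and Gabbr1 (-0.80, 0.00193). Counting all 25 tested genes of receptor assembly, anchoring and traffic, it was below 0 for 9 and above 0 for none, where 30.5% of all passed. Without both arrays that stood apart it was below 0 for 11 and above 0 for 6, where 48.1% of all passed. Of 9 chloride transporter and channel genes it was above 0 for 3 and below 0 for 2.

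The effect in IH28D against Ctrl28 differed from that in IH5D against Ctrl for 4 of the named pathway genes. Of all probe sets, 7.12% passed. Counting all tested genes by list, the difference was above 0 for 3 of 25 of receptor assembly, anchoring and traffic. It was above 0 for 1 and below 0 for 1 of 5 of GABA-B receptors and their partners. Of 9 chloride transporter and channel genes it was below 0 for 1. Among the named genes the difference was 0.77 for Iqsec3 (adjusted p = 0.00732), 0.55 for Gabbr1 (0.047), -1.14 for Kcnj3 (0.00463) and -1.38 for Clcn3 (0.00181). It contains the change in Ctrl28 against Ctrl, with its sign turned. That change was -0.71 for Iqsec3, -0.59 for Gabbr1, 0.88 for Kcnj3 and 1.26 for Clcn3, all called. IH28D and IH5D averaged 596 and 569 for Iqsec3, 2229 and 2290 for Gabbr1, 320 and 383 for Kcnj3, and 718 and 775 for Clcn3. IH28D was not tested against IH5D. Both tests of a difference contain Ctrl28, whose array 1 stood apart, and the first also contains the 12 m array 3. Without these 2 arrays together, a choice made after seeing the data, all of the named differences kept their sign and passed the test, where 48.1% of all probe sets passed the first and 28.2% the second. For Gabra3 the first difference was then 0.80 (0.000741), for Gabra4 1.73 (9.36e-06) and for Gabrb2 1.33 (0.000431) and 1.30 (0.000968). Leaving out 1 array at a time, the difference of Gabra3 ranged from 0.57, without the 12 m array 3, to 1.21 and failed the test in 14 of 18 fits, and that of Gabra4 ranged from 1.01 to 1.80 and failed it in 3 of 18.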

How the results depend on the processing

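Counts of the 15 member probe sets called moved by over 1.5 times as follows, with the share of all features called in the same fit in brackets. With no minimum signal there were 1 in IH28D against Ctrl28 (2.77%) and 0 in IH5D (1.69%) and in IH5DR2 (1.09%) against Ctrl. With 1 probe set per gene there were 5 of 7 in 12 m against Ctrl (53.3%), 3 in 12 m against Ctrl28 (16.3%) and 5 in IH28D against Ctrl (33.3%), and with the mean of the probe sets per gene 5 (52.1%), 1 (13.3%) and 3 (30.5%), and 0 in IH28D against Ctrl28 (7.62%) and in IH5D (3.56%) and IH5DR2 (2.82%) against Ctrl; fewer features were tested there. Median centring and quantile normalization each gave 1 in IH5D against Ctrl (5.72% and 4.49%) and 2 in Ctrl28 against Ctrl (32.9% and 31.7%). With no variance trend there were 0 in IH28D against Ctrl28 (6.28%) and in IH5D (4.26%) and IH5DR2 (1.95%) against Ctrl. With the compared groups only there were 2 in 12 m against Ctrl28 (1.54%), 0 in IH28D against Ctrl28 (0.0611%), 12 in IH5D (15.6%) and 11 in IH5DR2 (16.1%) against Ctrl. Array weights (0.099, 5.45 and 1.003 for the Ctrl28 arrays 1, 2 and 3) gave 13 in Ctrl28 against Ctrl (61.4%), 6 in IH28D against Ctrl28 (26.4%), 12 in IH5D (26.5%) and 9 in IH5DR2 (26.9%) against Ctrl, 4 for the 28-day minus the 5-day effect (33.2%) and 13 for the 12 m minus the 28-day effect (53.9%). With the gap as a covariate there were 4 in 12 m against Ctrl28 (14.5%), 12 in Ctrl28 against Ctrl (48.1%), 1 in IH28D against Ctrl28 (14.6%), 11 in IH5D (24.4%) and 8 in IH5DR2 (21.9%) against Ctrl, and 3 (27.8%) and 13 (46.1%) for those effects. The methods' t-test, adjusted, gave 1 in 12 m against Ctrl (12.7%) and 0 in the 7 other comparisons. At an unadjusted p below 0.05, with counts over all 22932 in brackets, this t-test gave 8 in 12 m against Ctrl (9911). It gave 6 in 12 m against Ctrl28 (3155). Against Ctrl it gave 6 in IH28D (7105), 11 in IH5DR2 (4871), 7 in IH5D (4840) and 1 in Ctrl28 (4698). It gave 2 in IH28D against Ctrl28 (2215) and 2 in IH5DR2 against IH5D (1413). The cause of these moves was not tested.

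The replicate block over all groups gave 1 in IH28D against Ctrl28 (6.29%) and 0 in IH5D (3.38%) and in IH5DR2 (2.13%) against Ctrl, and moved no other count by as much. Same-numbered IH28D and Ctrl28 arrays correlated at 0.208, 0.139 and -0.092 in their deviations, and those of Ctrl28 and Ctrl at -0.317, -0.168 and -0.021. With the block and the compared groups only, chosen after seeing the data, 13 were called in IH5D against Ctrl (31.6%). Leaving out the 12 m array 3 and the Ctrl28 array 1 together, also chosen after seeing the data, gave 14 in Ctrl28 against Ctrl (53.6%), 13 in IH5D (26.0%) and 11 in IH5DR2 (24.4%) against Ctrl, and 6 (28.2%) and 15 (48.1%) for the 28-day minus the 5-day effect and the 12 m minus the 28-day effect.

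Leaving out 1 array at a time gave 10 to 14 in 12 m against Ctrl, 6 to 10 in 12 m against Ctrl28, 0 to 5 in IH28D against Ctrl28, 4 to 11 in IH28D against Ctrl, 0 to 8 in IH5DR2 against Ctrl, 0 to 9 in IH5D against Ctrl, 0 throughout in IH5DR2 against IH5D, 0 to 13 in Ctrl28 against Ctrl, 0 to 2 for the 28-day minus the 5-day effect and 1 to 12 for the 12 m minus the 28-day effect. In the same order, 50.6%, 16.8%, 7.79%, 31.5%, 4.70%, 6.26%, 0%, 32.9%, 7.12% and 30.5% of all probe sets were called with all arrays, and these shares also moved as arrays were left out. For Gabra5 in 12 m against Ctrl the change ranged from -0.35 to 0.58 as 1 array was left out. Directions turned for Gabra4 in IH28D against Ctrl28 with the gap as a covariate (-0.84, adjusted p = 0.0208) and for Gabra5 in 12 m against Ctrl without the 12 m array 3 (0.58, 0.00317) and without both arrays (0.58, 0.000644). Median centring moved the median of all probe sets in 12 m against Ctrl to -0.20, against -0.08, and in IH28D against Ctrl to -0.11, against 0.002. It lowered the share of higher among called probe sets to 44.5%, against 58.6%, in 12 m against Ctrl28, to 54.4%, against 72.1%, in IH28D against Ctrl28, to 49.1%, against 62.9%, in IH28D against Ctrl and to 71.1%, against 82.5%, in IH5DR2 against Ctrl. Under median centring and quantile normalization no change of the brightest probe sets that was called turned in direction, Gabra2 lost its calls in IH28D against Ctrl28 and in IH5D against Ctrl, Gabrd lost that in 12 m against Ctrl28 and gained a lower call in IH28D against Ctrl, and Gabra4 gained a call in Ctrl28 against Ctrl.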
